A study of Mus musculus with 12 samples.

Results

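Mice lacking interleukin-1 alpha (Il1a KO) and mice lacking interleukin-1 beta (Il1b KO) were pooled and compared with wild-type C57BL/6 mice, to describe what the loss of either cytokine had in common in the contused spinal cord. The members were all 12 arrays of the series: 8 knockout arrays, chosen by titles naming Il1a KO or Il1b KO, and 4 arrays titled C57BL/6. The pooled difference is the mean of both knockout group means minus the wild-type mean, and it was taken over all 19938 genes that had a probe set with a single gene symbol. All mice were 8 to 12 weeks old on a C57BL/6 background and all received a contusion of 50 kdyn, so there was no uninjured group. A segment of 6 mm centred on the lesion was taken 24 h after injury and its total RNA was hybridised to whole-transcript expression arrays. Each group held 4 arrays that the labels call biological replicates. The labels name no animals, sex, substrain or breeding scheme, and they give no details of the deleted alleles.

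Interleukin-1 alpha and beta are encoded by neighbouring genes and act through a shared receptor, IL1R1, with its accessory chain IL1RAP. Ligand binding recruits MYD88 and IRAK kinases and activates NF-kB and mitogen-activated protein kinases, including those that feed AP-1. Il1rn encodes a natural antagonist and Il1r2 a decoy receptor. In injured cord, interleukin-1 alpha is known as an early alarm signal released by damaged cells, and interleukin-1 beta as a product of microglia and recruited leukocytes that promotes neutrophil entry.

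The tissue label was borne out by the markers: Snap25 of neurons, Mbp of myelin and Gfap of astrocytes had mean log2 values of 13.44, 12.83 and 12.63, among the brightest genes of the arrays. The array medians lay between 8.16 and 8.20, and the correlation of array pairs across genes was between 0.993 and 0.999. Some arrays stood apart from the rest. Wild type replicate 1 lay at one end of the first principal component (33.0% of the variance between arrays). Wild type replicate 3 lay at one end of the second (15.3%), at -13.8 against -5.59 for the next array, wild type replicate 4. Il1a KO replicate 1 read 6.47 for Xist, against 11.89 to 12.19 in the other arrays, and 9.15 for the Y-linked gene Eif2s3y, against 3.65 to 3.94, the pattern of a male sample among female ones. Without wild type replicate 1 and Il1a KO replicate 1 together, 69 genes were called in place of 89, and without wild type replicate 3 alone 78 were. Array number limits the precision of every value given here.

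The targeted genes were examined first. Il1b read 7.83, 7.68, 7.78 and 8.06 in wild type, 8.18, 8.05, 8.13 and 7.96 in the Il1a KO and 6.19, 6.63, 6.47 and 6.39 in the Il1b KO. The 4 Il1b KO arrays were the lowest and the Il1a KO arrays lay at or above most wild-type arrays, so the pooled value for Il1b, -0.58 (SE 0.0814, adjusted p = 0.00546), averaged a fall in one knockout with no fall in the other. Il1a read 6.22, 5.78, 5.74 and 5.76 in wild type, 4.97, 4.87, 5.03 and 5.03 in the Il1a KO and 4.85, 5.31, 5.01 and 5.24 in the Il1b KO. All 8 knockout arrays lay below all 4 wild-type arrays. The pooled difference of Il1a was -0.84 ± 0.0980 (SE; adjusted p = 0.00132), or 1.78-fold lower, and the knockouts differed by -0.13 (95% interval -0.37 to 0.12, adjusted p = 0.849). Il1a was thus lower in the strain that lacks Il1b as well as in its own knockout. Its mean level stood at percentile 9.37 of all genes, where array values are compressed. The probes' positions relative to the deleted parts are not known here, and remaining signal does not show remaining transcript. Il1bos, a transcript that overlaps Il1b on the opposite strand, was higher in the Il1b KO (6.66 to 6.95) than in the Il1a KO (6.06 to 6.19) or wild type (5.55 to 6.15). Its pooled difference was 0.61 ± 0.0910 (SE; adjusted p = 0.00729), and whether its probes tell the 2 strands apart is not known here. The antagonist Il1rn was at 0.23 (SE 0.102, adjusted p = 0.395) and did not pass the test.

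Across all genes, 89 of 19938 (0.446%) passed an adjusted p of 0.05 (limma with Benjamini-Hochberg adjustment over all genes), 48 higher (0.241%) and 41 lower (0.206%) in the knockouts. Most changes were small: 15 genes changed by at least 1.5-fold, 5 of them higher and 10 lower. At an unadjusted p under 0.05 there were 2325 genes, 1474 higher and 851 lower. All 8 knockout arrays lay above all 4 wild-type arrays in 266 genes (1.33%) and below them in 75 (0.376%). After a further quantile normalization these were 186 and 133. With 1 array left out, which makes the criterion easier to meet, they reached at most 645 (without wild type replicate 2) and 220 (without wild type replicate 1). The count of called genes depended on single arrays. It fell to 44 without wild type replicate 4 and to 57 without Il1b KO replicate 1, and lay between 60 and 102 without any other single array. With the 8 knockout arrays fitted as a single group, so that differences between the knockouts counted as error, 17 genes were called (9 higher, 8 lower).

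A pooled difference can come from both knockouts or from one. The Il1a KO was therefore compared directly with the Il1b KO, a contrast whose difference uses no wild-type mean, although wild-type arrays enter its error, and which called 130 genes (0.652%). Of the 89 genes, 40 were called different between the knockouts and 49 were not. The 49, of which 32 were higher and 17 lower, are named shared changes here in that sense. A missing call does not show that the knockouts were alike. The median size of the knockout difference among them was 0.07 and the largest 0.38 on the log2 scale, and for 37 of the 49 its 95% interval lay within 0.25 of 0. In 46 of the 49 the 8 knockout arrays did not overlap with wild type, against 1.71% of all genes, which follows in part from how the genes were called. The number of shared changes was the least stable count. It was 16 without wild type replicate 4, 24 without Il1b KO replicate 1, 26 without Il1a KO replicate 1 or Il1b KO replicate 3, 27 without Il1a KO replicate 3 and 29 without Il1a KO replicate 4. In all 12 fits that left 1 array out, 16 of the 49 remained called, 10 higher and 6 lower.

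**Figure D1:**
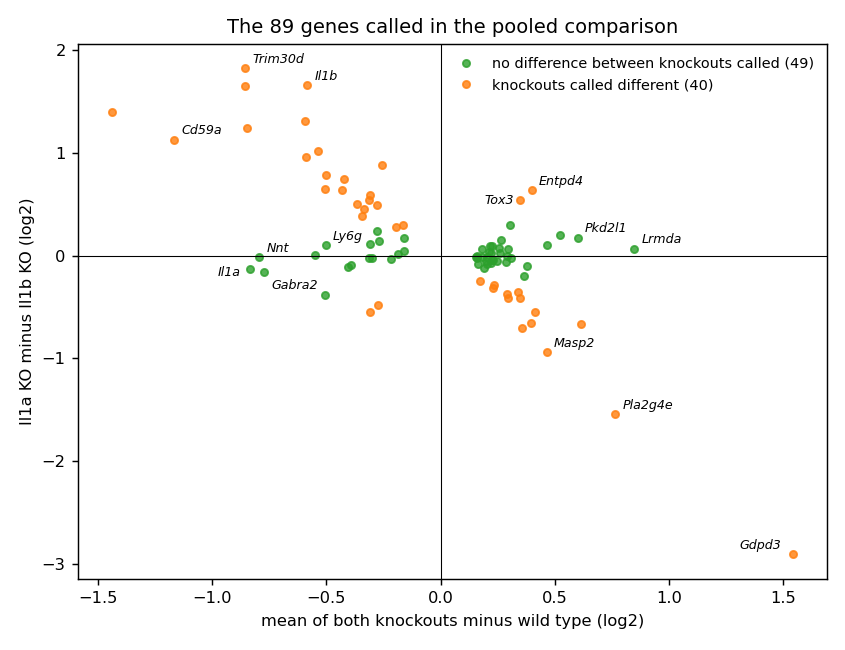
The 89 called genes, with the pooled knockout minus wild-type difference (log2) on the horizontal axis and Il1a KO minus Il1b KO (log2) on the vertical axis. The 49 shared changes lie along the horizontal line, within 0.38 of 0. The 40 other genes spread mostly along a diagonal, with pooled values from 1.55 for Gdpd3 to -1.44 for G530011O06Rik. Entpd4, Tox3, Crnde and Wdfy1, which were larger in the Il1a KO, lie off that diagonal.

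The shared falls are described first. For 12 of the 17 a RefSeq promoter window (GRCm38.p6, 250 bases before to 50 after a transcript start) was at hand. The AP-1 element TGACTCA, searched on both strands (TGAGTCA on the other), occurred in windows of 5 of these 12 genes (41.7%), against 839 of 15563 measured genes with a window (5.39%), 0 of 24 shared rises and 3 of 34 genes that differed between the knockouts (8.82%). The sequences are printed because this element was the 1 of 5 searched motifs whose share in the shared falls stood farthest from all measured genes. The kappaB motif (GGG, any 5 bases, CC) was in 6 of the 12 windows (50%) against 62.2% of measured genes. The stricter kappaB form (contained in the looser one), the C/EBP motif TTGCGCAA and the heat shock element were in 0 of the 12. A match describes letters in a window, not a bound site, and genes with several windows have more chances of one. The 5 genes with an AP-1 element include Il1a, itself a targeted gene. They also include Cd244a and Hrh1, whose calls were lost in 10 and 11 of 12 fits that left 1 array out. The Sprr1a run covers the 250 bases before the start (chr3:92485882-92486131, minus strand), and for the other 4 genes 30 bases around the match are shown. These are Il1a (chr2:129309967-129309996, minus strand), Ccl28 (chr13:119623827-119623856, plus strand), Cd244a (chr1:171559059-171559088, plus strand) and Hrh1 (chr6:114458294-114458323, plus strand, in 1 of its several windows). Capitals mark the AP-1 element, and all run 5′ to 3′.
Sprr1a: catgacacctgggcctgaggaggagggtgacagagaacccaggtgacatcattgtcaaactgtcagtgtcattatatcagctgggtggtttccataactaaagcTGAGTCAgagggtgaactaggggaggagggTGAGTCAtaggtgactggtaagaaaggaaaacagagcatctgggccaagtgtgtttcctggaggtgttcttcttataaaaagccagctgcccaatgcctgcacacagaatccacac
Il1a: ggcagagaagccTGACTCAgacttaagtct
Ccl28: cacagcctcaccTGAGTCAttgccagactc
Cd244a: actggttttttgTGAGTCActgtgcactct
Hrh1: aggacccagacaTGACTCAgccctctccag

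Among these genes Ccl28, a chemokine of mucosal epithelia that attracts lymphocytes, fell most after Il1a. Ccl28 read 7.20, 7.10, 7.06 and 7.21 in wild type, 6.61, 6.42, 6.66 and 6.69 in the Il1a KO and 6.67, 6.67, 6.502 and 6.53 in the Il1b KO. The knockouts did not overlap with wild type, and each stood 0.55 below it. Its pooled difference was -0.55 ± 0.0554 (SE; adjusted p = 3.74e-04), 1.46-fold lower, and the knockouts differed by 0.00 (95% interval -0.14 to 0.14, adjusted p = 0.997). Ccl5, a chemokine for T cells and monocytes, read 8.74 to 9.06 in wild type and 8.50 to 8.69 in the 8 knockout arrays, a difference of -0.30 ± 0.0549 (SE; adjusted p = 0.0340), but its call was lost in 8 of 12 fits that left 1 array out (adjusted p up to 0.127, without wild type replicate 4). Cd244a, a receptor of natural killer cells, was at -0.19 ± 0.0344 (SE; adjusted p = 0.0345), and Hrh1, the histamine H1 receptor, at -0.16 ± 0.0302 (SE; adjusted p = 0.0403). Both falls were at most 1.14-fold. The call was lost for Cd244a in 10 of 12 fits that left 1 array out (adjusted p up to 0.168, without wild type replicate 4), and for Hrh1 in 11 of 12 fits that left 1 array out (adjusted p up to 0.168, without wild type replicate 4). In bulk tissue, fewer cells of a type and less RNA per cell cannot be told apart.

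Sprr1a, a cornified-envelope protein that injured neurons induce, was bright in all arrays. Sprr1a read 10.53, 10.43, 10.78 and 10.77 in wild type, 9.73, 9.85, 9.99 and 10.13 in the Il1a KO and 10.20, 10.26, 10.42 and 10.37 in the Il1b KO. Every knockout array lay below every wild-type array, with the Il1a KO lowest. The pooled difference was -0.51 ± 0.0825 (SE; adjusted p = 0.0133), 1.42-fold lower. The knockouts stood at -0.70 and -0.31 against wild type, and their difference of -0.38 (95% interval -0.59 to -0.18, adjusted p = 0.143) did not pass the test. The call was lost without wild type replicate 3 and without wild type replicate 4 (adjusted p up to 0.0920). Atf3, a transcription factor that marks injured neurons, was at -0.24 (adjusted p = 0.0741) and did not pass.

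Ly6g, the surface protein that defines mouse neutrophils, fell by a similar amount. Ly6g read 6.70, 6.78, 6.58 and 6.79 in wild type, 6.05, 6.496, 6.26 and 6.25 in the Il1a KO and 5.96, 6.28, 6.18 and 6.24 in the Il1b KO. The groups did not overlap, although the gene was dim (percentile 20.4 of all genes). The pooled difference was -0.50 ± 0.0784 (SE; adjusted p = 0.00990), 1.42-fold lower, and without wild type replicate 4 the adjusted p was 0.0703. The other neutrophil markers did not pass: S100a8 was at -0.22 (adjusted p = 0.699), S100a9 at -0.07 (adjusted p = 0.910), the decoy receptor Il1r2, which neutrophils carry, at -0.64 (adjusted p = 0.111) and Cxcr2 at -0.47 (adjusted p = 0.320). Of 23 measured neutrophil genes, 19 were below 0. At an unadjusted p under 0.05 (limma), 8 of the 23 were lower and 1 was higher. The mean value of the 23 ran from 7.54 to 7.84 in wild type, 7.32 to 7.57 in the Il1a KO and 7.25 to 7.77 in the Il1b KO, so the groups overlapped.

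Mlkl, the kinase-like protein that ruptures membranes in necroptosis, read 6.95 to 7.21 in wild type, 6.75 to 6.87 in the Il1a KO and 6.69 to 6.77 in the Il1b KO. Its pooled difference was -0.31 ± 0.0454 (SE; adjusted p = 0.00709), 1.24-fold lower, and its call was kept in all 12 fits that left 1 array out. Aim2, which builds an inflammasome on cytosolic DNA, moved the other way. Aim2 read 7.01, 7.24, 7.51 and 7.25 in wild type, 7.73, 7.69, 7.87 and 7.81 in the Il1a KO and 7.58, 7.63, 7.65 and 7.81 in the Il1b KO. It was 0.47 ± 0.0752 (SE; adjusted p = 0.0123), 1.38-fold higher, in arrays that did not overlap, and without wild type replicate 4 the adjusted p was 0.0703. Of 26 measured genes of the inflammasome and of cell death, Mlkl and Aim2 were called, against 0.446% of all genes, and 19 were below 0. Casp1, the protease that matures interleukin-1 beta, was at -0.04 (adjusted p = 0.923).

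The falls with the smallest p among shared changes were those of 2 genes outside inflammation, Nnt and Gabra2. Nnt encodes the mitochondrial transhydrogenase that supplies NADPH. Nnt read 9.43, 9.49, 9.45 and 9.54 in wild type, 8.76, 8.61, 8.63 and 8.70 in the Il1a KO and 8.69, 8.65, 8.73 and 8.69 in the Il1b KO. The knockout arrays lay together, 0.80 and 0.79 below wild type. The pooled difference was -0.79 ± 0.0374 (SE; adjusted p = 3.62e-07), 1.73-fold lower, and the knockouts differed by -0.02 (95% interval -0.11 to 0.08, adjusted p = 0.964). Gabra2, a subunit of the GABA-A receptor, had nearly as low a p. Gabra2 read 10.21, 10.42, 10.44 and 10.29 in wild type, 9.62, 9.49, 9.43 and 9.40 in the Il1a KO and 9.71, 9.65, 9.65 and 9.58 in the Il1b KO. It was -0.77 ± 0.0521 (SE; adjusted p = 6.38e-06), 1.71-fold lower, with a knockout difference of -0.16 (95% interval -0.29 to -0.03, adjusted p = 0.484). Among 21 measured GABA-A and glycine receptor subunits no other was called, where 0.446% of all genes were. Of 21 antioxidant and NADPH genes, Nnt was the called one, against the same share of all genes. Sod1 was at 0.07 (adjusted p = 0.544).

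Both genes are known to differ between C57BL/6 substrains: C57BL/6J carries a deletion in Nnt and a low-expression variant of Gabra2. Of 12 candidate substrain genes, a list compiled with earlier results of these data known, 9 were measured and 4 were called, against 0.446% of all genes. Besides Nnt and Gabra2 these were Entpd4, a Golgi nucleotidase, and Wdfy1, an endosomal adaptor. Both of the latter moved in the Il1a KO, Entpd4 at 0.72 against 0.08 in the Il1b KO and Wdfy1 at -0.52 against -0.04. Cyfip2, Ide, Crb1, Chl1 and Mmrn1 lay between -0.06 and 0.09. The mean of the 9 genes was 9.14 to 9.17 in wild type and 8.97 to 9.02 in the knockouts. This mean contains the falls of Nnt (-0.79) and Gabra2 (-0.77) and is not a separate result from them. Since the labels name no substrain, the loss of an interleukin and the breeding background of the colonies cannot be told apart for any gene of this comparison.

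**Figure D2:**
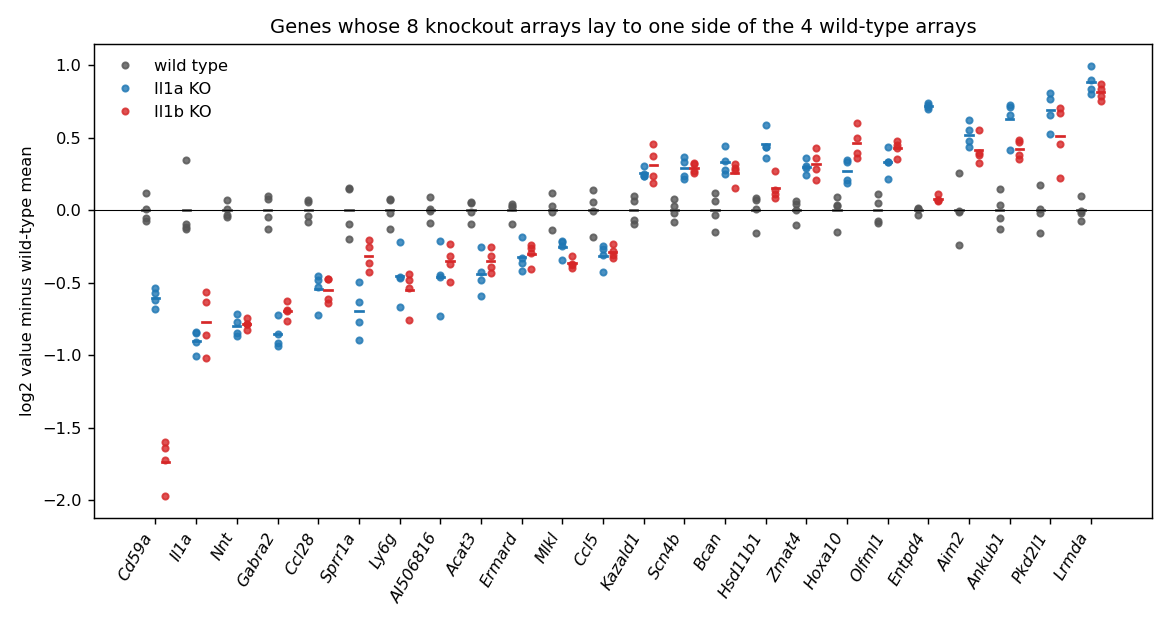
Log2 value of each array minus the wild-type mean of the gene, for 24 called genes whose 8 knockout arrays all lay above or all below the 4 wild-type arrays. Points are arrays and bars group means. Nnt, Gabra2, Ccl28, Scn4b and Lrmda show both knockouts at a like distance from wild type, while Cd59a (-0.60 and -1.73) and Entpd4 (0.72 and 0.08) do not.

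Acat3, a cytosolic acetyl-CoA acetyltransferase at the entry to sterol synthesis, fell as well. It read 8.81 to 8.96 in wild type, 8.31 to 8.65 in the Il1a KO and 8.47 to 8.65 in the Il1b KO, a difference of -0.39 ± 0.0578 (SE; adjusted p = 0.00709), 1.31-fold lower. The other measured cholesterol synthesis genes moved less and mostly upward: 18 of 21 lay above 0, with Mvd at 0.14 and Mvk at 0.10. Acat3 was the called one of the 21, against 0.446% of all genes. Ermard, a membrane protein of the endoplasmic reticulum, was at -0.31 ± 0.0485 (SE; adjusted p = 0.00975), with an adjusted p of 0.0641 without wild type replicate 4. The other shared falls were those of AI506816 (-0.41), the pseudogene Nlrp5-ps (-0.28), the matrix-remodelling-associated gene Mxra8 (-0.27), Gm4988 (-0.22) and the defensin Defb33 (-0.16). Each of these lost its call in at least 8 of the 12 fits that left 1 array out. For Nlrp5-ps, Mxra8 and Defb33 a knockout array overlapped with wild type.

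The highest shared rise was that of Lrmda, a leucine-rich protein known for its part in melanocyte differentiation. Lrmda read 7.15, 7.25, 7.14 and 7.09 in wild type, 7.99, 8.06, 8.15 and 7.96 in the Il1a KO and 7.99, 7.91, 7.95 and 8.03 in the Il1b KO. Each of the 8 knockout arrays stood well clear of the 4 wild-type arrays. The pooled difference was 0.85 ± 0.0443 (SE; adjusted p = 6.00e-07), 1.80-fold higher, and the knockouts differed by 0.07 (95% interval -0.04 to 0.18, adjusted p = 0.812). Ankub1, a protein with ankyrin repeats, read 7.43 to 7.71 in wild type and 7.91 to 8.28 in the knockouts, 0.52 ± 0.0639 (SE; adjusted p = 0.00182), 1.44-fold higher. Olfml1, a secreted olfactomedin-like protein, was at 0.38 ± 0.0493 (SE; adjusted p = 0.00345) with no overlap (7.79 to 7.98 against 8.09 to 8.35). All 3 kept their calls in every fit that left 1 array out.

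Pkd2l1, a channel of the neurons that contact the cerebrospinal fluid around the central canal, had the next highest shared rise. Pkd2l1 read 7.69, 8.02, 7.82 and 7.86 in wild type, 8.66, 8.37, 8.61 and 8.50 in the Il1a KO and 8.52, 8.07, 8.55 and 8.30 in the Il1b KO. The groups did not overlap, but Il1b KO replicate 2 lay close to wild type replicate 2. The difference was 0.60 ± 0.0897 (SE; adjusted p = 0.00779), 1.52-fold higher. It missed the threshold without wild type replicate 1 and Il1a KO replicate 1 together (adjusted p = 0.0511). Of 19 measured ependymal and fluid-contacting cell genes, Pkd2l1 was the called one, against 0.446% of all genes. Of the 19, 9 lay above 0, with Gata3, another marker of these neurons, at 0.10 (adjusted p = 0.344). Scn4b read 9.89 to 10.05 in wild type, 10.19 to 10.34 in the Il1a KO and 10.23 to 10.30 in the Il1b KO. This beta subunit of voltage-gated sodium channels stood 0.29 higher in each knockout, at 0.29 ± 0.0405 (SE; adjusted p = 0.00546), and its knockout difference had a 95% interval from -0.10 to 0.10. The metabotropic glutamate receptors Grm3, an astrocyte and neuron receptor, and Grm4, a presynaptic one, were at 0.26 ± 0.0487 (SE; adjusted p = 0.0388) and 0.20 ± 0.0309 (SE; adjusted p = 0.00931). Grm4 was kept in all 12 fits that left 1 array out, and Grm3 was lost in 9 of 12 fits that left 1 array out (adjusted p up to 0.175, without wild type replicate 4). Aqp6, a water and anion channel, was at 0.26 ± 0.0384 (SE; adjusted p = 0.00709), and Abcc9, a potassium channel regulator of pericytes, at 0.16 ± 0.0321 (SE; adjusted p = 0.0493), with its call lost in 12 of 12 fits that left 1 array out (adjusted p up to 0.145, without wild type replicate 4).

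Among further shared rises, Bcan, a proteoglycan of perineuronal nets, was at 0.29 ± 0.0543 (SE; adjusted p = 0.0353), 10.17 to 10.46 in the knockouts against 9.87 to 10.14 in wild type. Hapln4, a link protein that ties such proteoglycans to hyaluronan, was at 0.22 ± 0.0418 (SE; adjusted p = 0.0392), Kazald1, a secreted protein related to growth factor binding proteins, at 0.29 ± 0.0543 (SE; adjusted p = 0.0403), and Lama2, the alpha-2 chain of laminin, at 0.25 ± 0.0460 (SE; adjusted p = 0.0391). None of the 4 overlapped with wild type. Their calls were fragile, being lost in 9 of 12 fits that left 1 array out for Bcan and Lama2, 10 for Kazald1 and 11 for Hapln4. In each of them the highest p came without wild type replicate 4.

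Hoxa10, which patterns the lumbar cord, was at 0.37 ± 0.0570 (SE; adjusted p = 0.00990), 8.43 to 8.84 in the knockouts against 8.09 to 8.33 in wild type, and the zinc-finger gene Zmat4 at 0.31 ± 0.0464 (SE; adjusted p = 0.00789). Nr4a2, an orphan nuclear receptor and immediate early gene, was at 0.23 ± 0.0348 (SE; adjusted p = 0.00931), with an adjusted p of 0.0586 without wild type replicate 4. Hsd11b1, which regenerates active glucocorticoid, had the widest spread between knockouts among the larger rises, at 0.45 in the Il1a KO and 0.15 in the Il1b KO. Its pooled difference was 0.30 ± 0.0558 (SE; adjusted p = 0.0352), its knockout difference of 0.30 (95% interval 0.16 to 0.44, adjusted p = 0.0633) did not pass, and its call was lost in 8 of 12 fits that left 1 array out (adjusted p up to 0.145, without wild type replicate 4). Pde8a, a cyclic AMP phosphodiesterase, was at 0.26 ± 0.0469 (SE; adjusted p = 0.0350), and lost its call in 8 of 12 fits that left 1 array out (adjusted p up to 0.141, without wild type replicate 4). Elovl2, which elongates polyunsaturated fatty acids, was at 0.22 ± 0.0333 (SE; adjusted p = 0.00922), with an adjusted p of 0.0579 without wild type replicate 4. The mitochondrial assembly factor gene Cmc2 was at 0.23 ± 0.0331 (SE; adjusted p = 0.00698).

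The 11 remaining shared rises were between 0.16 and 0.22. They were Kif5a, a kinesin of axonal transport, Nptx1, a synaptic pentraxin, Papss1, which makes the sulfate donor for proteoglycans, Agap1, Dennd11, Tmem141, Dhps, which begins hypusine synthesis, the cleavage factor gene Cstf2t, the transporter gene Abcg4, the complex I subunit gene Ndufa11 and B230217C12Rik. Kif5a read 11.64 to 11.68 in wild type and 11.77 to 11.93 in the knockouts, 0.18 ± 0.0307 (SE; adjusted p = 0.0189). Nptx1 was at 0.20 ± 0.0321 (SE; adjusted p = 0.0104). Nptx1 lost its call without wild type replicate 4, Kif5a in 4 of the 12 fits that left 1 array out, Dennd11 in 5, and each of the others in at least 8. Dennd11 and Ndufa11 also lost their calls with the mean of all probe sets of a gene, where the adjusted p of Dennd11 was 0.352 (limma).

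In 36 of the 40 genes that differed between the knockouts, the difference from wild type was larger in the Il1b KO. Gdpd3, a lysophospholipase D, had the highest pooled rise of all called genes. Gdpd3 read 6.30, 6.68, 6.51 and 6.52 in wild type, 6.57, 6.63, 6.61 and 6.57 in the Il1a KO and 9.66, 9.52, 9.66 and 9.19 in the Il1b KO. Only the Il1b KO arrays stood apart, at 3.001 above wild type against 0.09 in the Il1a KO. Pla2g4e, a cytosolic phospholipase A2, stood at 1.54 and -0.01, and Masp2, a protease of the complement lectin pathway, at 0.94 and -0.01. Falls of this kind were those of the paralogous Trim12a (-1.68 in the Il1b KO, -0.03 in the Il1a KO) and Trim30d (-1.77 and 0.06), AA467197 (-1.47 and -0.23), the lipoxygenase Alox8 (-1.25 and 0.06), Ly86, the partner of a Toll-like receptor homologue (-1.07 and -0.11), and the ribosomal protein gene Rpl34 (-1.05 and -0.03). Trim12a and Trim30d belong to a family of near-identical copies and Rpl34 has processed copies, so probes may be shared. Trim30d lost its pooled call without wild type replicate 3 and without wild type replicate 4 (adjusted p up to 0.0823).

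The remaining 4 were larger in the Il1a KO: Entpd4, Wdfy1, the long noncoding RNA Crnde (-0.58 against -0.03) and the HMG-box gene Tox3. Tox3 read 8.17, 8.17, 8.16 and 8.02 in wild type, 8.78, 8.86, 8.65 and 8.69 in the Il1a KO and 8.24, 8.16, 8.24 and 8.18 in the Il1b KO. The Il1a KO arrays lay above all others, and the Il1b KO arrays overlapped with wild type. The pooled difference of Tox3 was 0.35 ± 0.0456 (SE; adjusted p = 0.00345), and the knockouts differed by 0.54 (95% interval 0.42 to 0.65, adjusted p = 1.46e-04). Without wild type replicate 4 the adjusted p of Crnde was 0.0515.

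Both knockouts lay on the same side of wild type without overlap in 4 of the 40 genes (1.71% of all genes), namely Cd59a, Entpd4, Zfp106 and Mtus1. Cd59a encodes a membrane inhibitor of the complement attack complex. Cd59a read 11.48, 11.46, 11.65 and 11.55 in wild type, 10.86, 10.96, 11.002 and 10.92 in the Il1a KO and 9.81, 9.57, 9.89 and 9.94 in the Il1b KO. The groups formed 3 separate steps, with the Il1b KO lowest. The pooled difference was -1.17 ± 0.0636 (SE; adjusted p = 6.00e-07), 2.25-fold lower, and the knockouts differed by 1.13 (95% interval 0.97 to 1.29, adjusted p = 2.25e-06). G530011O06Rik, a transcript on the X chromosome, stood at -0.74 in the Il1a KO and -2.14 in the Il1b KO, but an Il1a KO array overlapped with wild type. Of 22 measured complement genes, Cd59a and Masp2 were called, against 0.446% of all genes, and 14 were below 0, with a median of -0.04. At an unadjusted p under 0.05 (limma), 6 were lower and 1 was higher. The mean of the list was 8.45 to 8.52 in wild type, 8.37 to 8.42 in the Il1a KO and 8.34 to 8.41 in the Il1b KO, without overlap. This mean contains the fall of Cd59a and the rise of Masp2.

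Called genes lay on 18 chromosomes. Along the RefSeq gene order (GRCm38.p6), 22 of the 40 genes that differed between the knockouts had another called gene with at most 20 measured genes between, against 11 of the 49 shared changes, a distance chosen after the data were seen. On chromosome 2 Spint1, Tyro3, Pla2g4e, Zfp106 and Adal followed each other in this way. On chromosome 4 Mrpl20, Mxra8, Acap3, C1qtnf12 and Gm16008 did, and Ly86 and Ssr1 on chromosome 13, Etnppl and Rpl34 on chromosome 3, Trim12a and Trim30d on chromosome 7, and Mtus1 and Frg1 on chromosome 8 were close pairs. Within 100 measured neighbours of Il1a and Il1b, 5 of 202 genes were called, against 0.448% of all placed genes. Of these 5, 3 were Il1a, Il1b and Il1bos. For the counts of called neighbours above, no share over all genes was taken. Among shared changes, Nnt and Ccl28 had 4 measured genes between them on chromosome 13, and both fell. Pkd2l1 and Kazald1 (16 genes between, chromosome 19) both rose, and Acat3 and Ermard (17 genes between, chromosome 17) both fell. Linked strain sequence around a gene was not measured here.

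**Figure D3:**
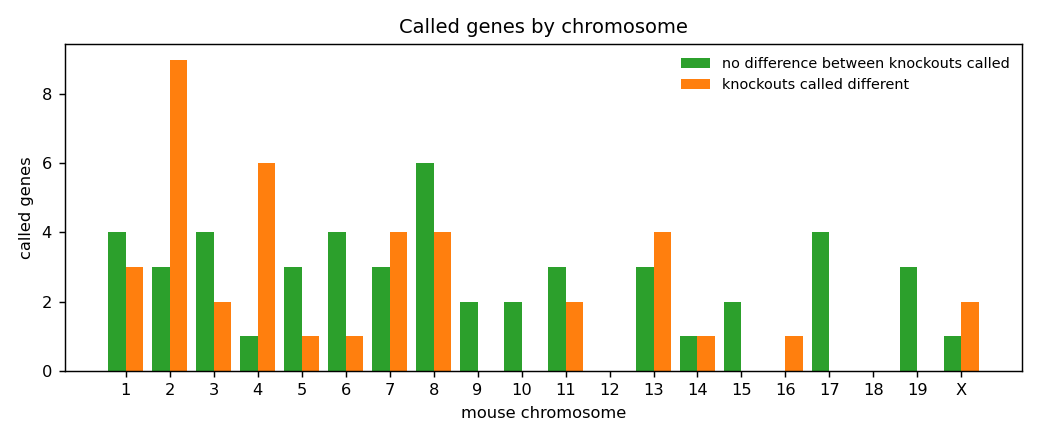
Number of called genes on each mouse chromosome (RefSeq GRCm38.p6), shared changes and genes that differed between the knockouts side by side. The share of differing genes is highest on chromosome 13, with 4 of 732 measured (0.546%). Chromosome 2 holds 9 of 1732 (0.520%), chromosome 4 holds 6 of 1154 (0.520%) and chromosome 8 holds 4 of 955 (0.419%), against 0.201% of all placed genes. Chromosome 8 holds 6 shared changes of 955 (0.628%), against 0.247%, and no test was made of these shares.

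Gene lists of cell types and pathways were set beside all genes, of which 9988 lay above 0 and 9950 below, with a median pooled difference of 0.0002. Of 33 lists, 19 had no called member, and no list had more than 4. These counts rested on the error model: over the alternatives, called members ranged from 0 to 9 higher for neurons, 0 to 7 higher for mature oligodendrocytes and 0 to 8 lower for neutrophils. Mature oligodendrocyte markers lay above 0 in 24 of 26 measured members, with a median of 0.11 and no call by limma (16 members at an unadjusted p under 0.05, all higher). Gpr37, a receptor of myelinating cells, had the smallest p, at 0.28 ± 0.0559 (SE; adjusted p = 0.0515), and Opalin was at 0.41 (adjusted p = 0.130). The mean of the list was 10.95 to 11.04 in wild type, 11.08 to 11.21 in the Il1a KO and 11.05 to 11.16 in the Il1b KO, so that no knockout array overlapped with wild type. Oligodendrocyte precursor markers had a median of 0.11 (14 of 19 above 0), with C1ql1 at 0.22 ± 0.0484 (SE; adjusted p = 0.0736). Schwann cell markers had a median of 0.13 (9 of 13), astrocyte markers 0.06 (14 of 20) and neuron markers 0.05 (22 of 27). The neuron marker Thy1 was at 0.16 ± 0.0369 (SE; adjusted p = 0.0876). The list means of neurons, at 11.20 to 11.24 in wild type and 11.23 to 11.32 in the knockouts, stood beside the rises of Kif5a, Nptx1 and Scn4b, and their part in those rises was not tested.

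Lists with medians below 0 were led by skeletal muscle, at -0.17 with 18 of 18 members below 0 and none called by limma (10 members at an unadjusted p under 0.05). Acta1, the muscle actin, had values of 8.40 and 8.53 in wild type replicates 1 and 3 and at most 7.92 in each other array, so this list moved with those arrays. Its list mean was 7.14 to 7.56 in wild type and 7.06 to 7.20 in the knockouts. Reactive astrocyte genes lay below 0 in 26 of 27 members (median -0.10), with Cp, the copper ferroxidase, at -0.22 ± 0.0598 (SE; adjusted p = 0.150), Timp1 at -0.30 (adjusted p = 0.196) and Vim at -0.10 (adjusted p = 0.182). At an unadjusted p under 0.05 (limma), 9 of the 27 were lower and 0 higher. The mean of this list was 10.36 to 10.50 in wild type, 10.18 to 10.35 in the Il1a KO and 10.25 to 10.44 in the Il1b KO, with overlap. Neutrophil markers had a median of -0.12, acute-phase genes -0.08 (15 of 20 below 0, Saa2 at -0.36 ± 0.0899 (SE; adjusted p = 0.119)), erythroid genes -0.08 (4 of 4, with Alas2 at -0.37 ± 0.0833 (SE; adjusted p = 0.0838)), interferon-stimulated genes -0.08 (24 of 29) and axon injury genes -0.06 (16 of 21, with Sprr1a called). The interferon list was at -0.01 in the Il1a KO and -0.13 in the Il1b KO. The axon injury list, with 1 of 21 called against 0.446% of all genes, was at -0.12 in the Il1a KO and -0.03 in the Il1b KO.

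**Figure D4:**
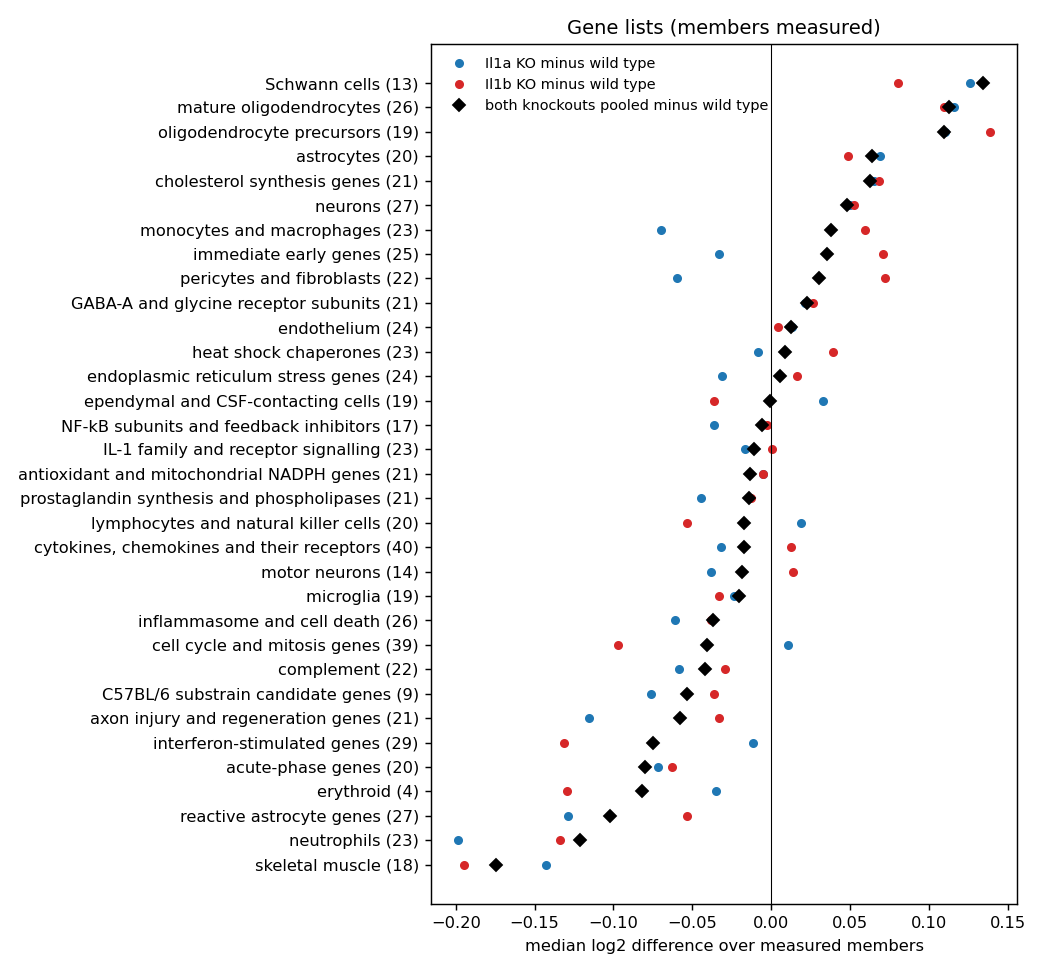
Median log2 difference over the measured members of each of 33 gene lists, for the pooled comparison (diamonds) and for each knockout against the same wild-type arrays (circles). Mature oligodendrocyte, precursor, Schwann cell, astrocyte and neuron lists lie to the right, up to 0.13, and skeletal muscle, neutrophil and reactive astrocyte lists to the left, down to -0.17.

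**Figure D5:**
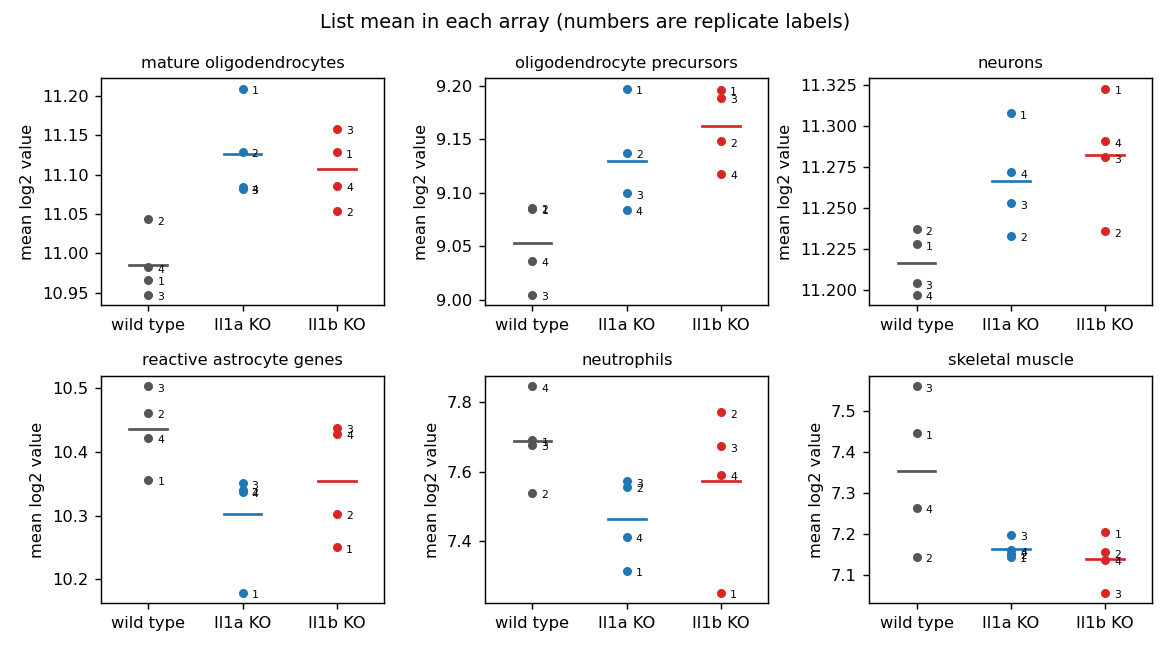
Mean log2 value over the members of 6 lists in each array, with replicate labels beside the points and bars for group means. For mature oligodendrocytes no knockout array falls below the highest wild-type array (11.04), whereas neutrophil and reactive astrocyte means overlap between groups.

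Of 23 measured genes of the interleukin-1 family and its signalling, 2 were called, against 0.446% of all genes, and the median was -0.01. Both were targeted genes, Il1a and Il1b. The receptor chain Il1rap was at -0.01, the adaptor Myd88 at -0.04, the kinase Irak1 at -0.01 and Irak2 at 0.19, and their adjusted p were 0.955, 0.810, 0.934 and 0.114. Il1r1 had no probe set with a single symbol and was not analysed here. Of 17 NF-kB subunits and feedback inhibitors none was called (limma; 1 at an unadjusted p under 0.05), with Cyld, a deubiquitinase that restrains NF-kB, at 0.11 ± 0.0508 (SE; adjusted p = 0.408). Of 40 cytokines, chemokines and receptors, Ccl28 and Ccl5 were called, again against 0.446%, and the median was -0.02. Ccl2, the chief monocyte chemokine, was at -0.02 (adjusted p = 0.962), Cxcl1 at -0.02 (adjusted p = 0.942) and Tnf at -0.09 (adjusted p = 0.622). Cxcl2, a neutrophil chemokine, was at 0.65 (adjusted p = 0.328), from 0.25 in the Il1a KO and 1.06 in the Il1b KO, and Il6 at 0.27 (adjusted p = 0.610).

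The other lists lay near the median of all genes. Prostaglandin and phospholipase genes had a median of -0.01, with 2 of 21 called (Pla2g4e and Alox8, against 0.446% of all genes). Immediate early genes had a median of 0.04, with 1 of 25 called (Nr4a2, against the same share). Heat shock chaperones were at 0.01 and endoplasmic reticulum stress genes at 0.01. Cell cycle genes were at -0.04 (29 of 39 below 0), from 0.01 in the Il1a KO and -0.10 in the Il1b KO. None of these last 3 lists had a called member (limma; 4, 2 and 4 members at an unadjusted p under 0.05 in either direction). Microglia markers had a median of -0.02, with 12 of 19 below 0. At an unadjusted p under 0.05 (limma), 4 of them were lower and 1 was higher. The higher one was Fcrls, at 0.30 ± 0.0656 (SE; adjusted p = 0.0701). Medians were 0.04 for monocyte and macrophage markers, -0.02 for lymphocyte and natural killer cell markers and 0.01 for endothelium. They were 0.03 for pericytes and fibroblasts (1 of 22 called, Abcc9, against 0.446% of all genes) and -0.02 for motor neurons. The monocyte list stood at -0.07 in the Il1a KO and 0.06 in the Il1b KO. For Ccl5, Cd244a and Ly6g the levels of these cell lists were thus at -0.02 for lymphocytes and natural killer cells and -0.12 for neutrophils, and their part in those falls was not tested.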

How the data were processed

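Expression was measured on 12 whole-transcript arrays of contused mouse spinal cord, 4 per group. The deposited values are log2 values made by the authors, 1 per probe set and array, and were used as they stand. GCOS 1.4, RMA, limma and Partek were used per the submitters' processing notes, which give no role or order. Values ran from 2.97 to 14.4 with near-equal array medians, so an overall shift in RNA amount would not show, and differences of dim genes are compressed. For the genome build, nothing is given in the sources used here. Among 35557 probe sets, 21789 had 1 symbol in the platform annotation and were used. The 1621 with several symbols and 12147 with none were left out. The brightest set stood for each of 999 genes with several, which left 19938 genes, of which 19853 were placed by RefSeq (GRCm38.p6).

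limma 3.58.1 in R 4.3.3 was fitted with 1 mean per group over all 12 arrays, without a trend. The contrasts were the mean of both knockouts minus wild type, two-sided, and Il1a KO minus Il1b KO. Each knockout minus wild type is printed beside them for single genes, and both of these share the wild-type arrays. P-values were adjusted by Benjamini and Hochberg's method across the 19938 genes, with a threshold of 0.05. Since no animals are named, p-values reflect the spread of these arrays, which may be technical. The alternatives were another variance prior, normalization, centring, a filter on dim genes, another probe set rule, the knockouts as 1 group, array weights, the replicate number as a block, and each array left out in turn. Leaving out wild type replicate 1 together with Il1a KO replicate 1 was added after the data were seen.

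Named genes were the 15 largest rises and 15 largest falls among called genes whose groups did not overlap, the 8 largest pooled differences among genes also called between the knockouts, Il1a, Il1b, Il1rn, Nnt and Tox3, and up to 3 called members of each gene list, or else the member with the smallest p. Other genes were picked with their values in view. The members, the lists and the rule were chosen with earlier results of these data known.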

Additional observations from a re-analysis of the deposited data

Results flagged for a closer look

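In 98 named genes each of the 3 groups of 4 arrays was searched for a single array far from the other 3 of its group, 294 searches in all. There were 14 such cases, about the number that chance gives, since chance marks about 1 in 20 groups. The cases of Xist and Eif2s3y stand apart from this rate, being the pattern of a male sample among female ones described above. The values below are the array's log2 value and the range of the other 3. Il1a KO replicate 1 read 6.47 against 12.01 to 12.08 for Xist and 9.15 against 3.80 to 3.91 for Eif2s3y. Among wild-type arrays, replicate 1 read 6.22 against 5.74 to 5.78 for Il1a, replicate 3 read 7.4995 against 7.33 to 7.35 for Gm4988 and 8.34 against 8.37 to 8.37 for Hrh1, and replicate 4 read 10.68 against 10.72 to 10.72 for Entpd4 and 8.02 against 8.16 to 8.17 for Tox3. In the Il1b KO, replicate 3 read 10.82 against 10.77 to 10.78 for Entpd4 and 8.12 against 8.20 to 8.21 for Hrh1, replicate 4 read 8.11 against 8.17 to 8.18 for Nlrp5-ps and 10.001 against 10.04 to 10.04 for Abcg4, and replicate 2 read 10.79 against 10.82 to 10.83 for Zfp106. In the Il1a KO, replicate 4 read 8.23 against 8.35 to 8.37 for Lama2 and replicate 2 read 10.94 against 11.14 to 11.18 for Ly86. With the array in question left out, the pooled call of limma was lost for Gm4988 (adjusted p = 0.0755), Hrh1 (0.0605 without wild type replicate 3, 0.0743 without Il1b KO replicate 3), Nlrp5-ps (0.0896) and Abcg4 (0.0743). It was kept for Il1a (-0.72, adjusted p = 0.00122), Entpd4, Tox3, Lama2, Zfp106 and Ly86.

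The effects of the knockouts differed by the direct test (limma, adjusted p under 0.05) in 27 of the named genes. Over all 19938 genes this test called 130 (0.652%). Some named genes were picked by this same test or with their values in view, so the count of 27 follows from that choice. Given as Il1a KO minus Il1b KO on the log2 scale, the values above 0 were 1.83 for Trim30d, 1.66 for Il1b, 1.66 for Trim12a, 1.404 for G530011O06Rik, 1.31 for Alox8 and 1.24 for AA467197. They were 1.13 for Cd59a, 1.02 for Rpl34, 0.96 for Ly86, 0.88 for Etnppl, 0.75 for Spint1, 0.64 for Entpd4, 0.54 for Tox3, 0.50 for C1qtnf12 and 0.46 for Frg1. Values below 0 were -2.91 for Gdpd3, -1.55 for Pla2g4e, -0.94 for Masp2, -0.70 for Mrpl20, -0.67 for Il1bos and -0.55 for Crnde. The smallest were -0.48 for Wdfy1, -0.41 for Adal, -0.38 for Tyro3, -0.32 for Zfp106, -0.28 for Mtus1 and -0.25 for Acap3.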

How the results depend on the processing

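The count of called genes rested on the error model more than on scaling. The 89 genes became 231 (165 higher, 66 lower) with an intensity trend and robust prior, 961 (661 higher, 300 lower) with array weights and 144 (93 higher) with the dimmest genes left out (mean level in the lowest 25% of genes), where fewer genes are tested. They became 17 (9 higher, 8 lower) with the 8 knockout arrays as 1 group, where all 40 genes that differed between the knockouts lost their call, as did 32 of the 49 shared changes. A further quantile normalization (106), median centring (91) and the mean of probe sets (88) kept the count within 1.5 times, with 79, 83 and 86 of the 89 genes kept. The 49 shared changes became 170 (140 higher, 30 lower) with the trend, 866 (620 higher, 246 lower) with array weights and 98 (74 higher) without the dimmest genes, and the shared falls became 27 after the further quantile normalization. The 40 differing genes became 61 with the trend and 95 with array weights, and the direct comparison of the knockouts rose from 130 to 244 with array weights. With the replicate block 66 genes were called, 60 of them among the 89, and 29 were shared changes (17 higher). The deviations of same-numbered arrays from their group means correlated with r from -0.37 to 0.44, 2 of 12 above 0.1, so the numbers were not taken to pair the arrays.

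With each array left out in turn, the count of called genes ran from 44 to 102 (higher 22 to 57, lower 22 to 45), that of shared changes from 16 to 61 (higher 10 to 41, lower 6 to 20), that of differing genes from 28 to 43 and that of the direct knockout comparison from 88 to 146. Genes without overlap ran from 274 to 645 higher and from 80 to 220 lower, and 133 were lower after the further quantile normalization. Without wild type replicate 1 and Il1a KO replicate 1 together, 21 shared rises were called, and 583 genes without overlap were higher and 238 lower. In all 12 fits 43 of the 89 genes stayed called, 27 of them differing genes. Under all 21 alternatives 12 stayed called, namely Lrmda, Ankub1, Olfml1, Zmat4, Scn4b, Grm4, Cmc2, Nnt, Gabra2, Ccl28, Acat3 and Mlkl. Il1a was called in the 20 that tested it, being 1 of 7 called genes too dim for the filter. No named gene called in the pooled comparison changed direction. The medians of the mature oligodendrocyte list (0.095 to 0.131), the skeletal muscle list (-0.245 to -0.111), the neutrophil list (-0.221 to -0.084) and the reactive astrocyte list (-0.121 to -0.080) kept their sign, and that of the erythroid list reached 0.015.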
